A study of Mus musculus with 20 samples.

Results

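Liver sinusoidal endothelial genes were followed through a mouse liver expression table as 10 symbols, Lyve1, Stab1, Stab2, Clec4g, Fcgr2b, Oit3, Gpr182, Pecam1, Kdr and Eng. All 10 had a row among the 24972 rows of the table. Poly(A)-selected RNA of total liver had been sequenced from 14 libraries of mice fed for 6 weeks. The groups were WT on alcohol diet (n = 4), WT on control diet (n = 4), RageΔMye on alcohol diet (n = 3) and RageΔMye on control diet (n = 3), all labelled male. The labels name no strain, age, floxed allele or Cre driver, and they do not say whether each library came from a separate animal, so the spread between libraries may be technical in part. The diet effect was tested within WT, from the 8 libraries whose names begin with SD1, and the RageΔMye values are set beside it.

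Sinusoidal endothelial cells line the capillaries of the liver. They lack a basement membrane, are perforated by open fenestrae, and clear macromolecules from portal blood through scavenger receptors, lectins and Fc receptors. Their identity depends on VEGF from hepatocytes and on BMP9 and BMP10 signalling through endoglin, and loss of that identity with gain of continuous-capillary features is called capillarisation. In bulk liver RNA, fewer endothelial cells and less RNA per endothelial cell cannot be told apart.

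The levels are in TPM, the usual unit of transcript abundance, which is scaled for gene length and to the same total in every library, so a level is always a share of the library. The read depth behind a TPM value is unknown. The WT diet groups also differed in sex-linked RNA. Xist, the non-coding RNA that coats a silenced X, was at 17.8 to 27.3 TPM on alcohol diet and at 0.00165 to 0.135 TPM on control diet. The 4 Y-linked genes Ddx3y, Eif2s3y, Kdm5d and Uty summed to 0 to 0.0161 TPM on alcohol diet and to 11.3 to 16.6 TPM on control diet. Diet and sex can therefore not be told apart in any WT comparison given here. The 21 major urinary protein genes took 0.177% to 0.251% of TPM on alcohol diet and 7.26% to 10.9% on control diet. The 12 hepatocyte markers, which check the tissue label, summed to 199929 to 221776 TPM on alcohol diet and 168964 to 188015 TPM on control diet. The libraries labelled RageΔMye stood apart from WT. They listed 7592 to 8499 genes above 0, against 15109 to 15595 in WT, and 1 or 2 of 14 housekeeping genes at 0, against 0 in WT. Ager, the gene of the receptor RAGE, was at 93.1 to 166 TPM in them and at 0.0194 to 0.478 TPM in WT, which goes against the genotype label.

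RefSeq promoters on GRCm38.p6, the assembly behind the mm10 build of the table, were at hand for 6 of the 10 genes (Stab1, Stab2, Clec4g, Fcgr2b, Kdr and Eng). Each runs from 250 bases before the annotated start to 50 bases after it. Those of Clec4g, the most abundant of the 10, and of the scavenger receptor paralogs Stab1 and Stab2 are shown. Capitals mark the letters CGGAAG or AGGAAG on either strand, a core bound by ETS-family factors, which are general regulators of endothelial genes.
Clec4g: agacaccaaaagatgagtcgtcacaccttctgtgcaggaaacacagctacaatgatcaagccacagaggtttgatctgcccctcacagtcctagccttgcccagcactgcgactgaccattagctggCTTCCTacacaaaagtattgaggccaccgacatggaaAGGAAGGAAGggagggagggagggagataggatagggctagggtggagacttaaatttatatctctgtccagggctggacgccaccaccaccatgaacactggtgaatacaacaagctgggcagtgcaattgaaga
Stab1: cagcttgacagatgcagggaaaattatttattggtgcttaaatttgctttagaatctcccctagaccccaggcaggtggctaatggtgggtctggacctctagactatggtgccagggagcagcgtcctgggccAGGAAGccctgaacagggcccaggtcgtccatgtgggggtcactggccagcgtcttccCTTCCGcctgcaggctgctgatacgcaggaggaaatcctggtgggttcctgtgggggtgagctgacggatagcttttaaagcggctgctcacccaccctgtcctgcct
Stab2: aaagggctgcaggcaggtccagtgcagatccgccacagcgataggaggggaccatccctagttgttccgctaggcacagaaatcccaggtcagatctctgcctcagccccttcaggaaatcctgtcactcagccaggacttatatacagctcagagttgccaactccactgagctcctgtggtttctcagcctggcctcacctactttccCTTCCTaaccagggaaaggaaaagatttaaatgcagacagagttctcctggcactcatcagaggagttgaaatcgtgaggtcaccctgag
The Clec4g promoter lies at chr8:3720602-3720901, the Stab1 promoter at chr14:31168592-31168891 and the Stab2 promoter at chr10:87007893-87008192, all on the minus strand. Clec4g held 3 matches, of which the pair starting 86 and 82 bases before the start overlap, Stab1 held 2 matches and Stab2 held 1 match. Of those not shown, Eng held 2 matches, and Fcgr2b and Kdr held 0. Thus 4 of the 6 promoters had at least 1, against 46.5% of all 32851 promoters in the table. The letters AGATAA (the core of GATA factors) were in 0 of the 6 promoters and in 11.2% of all promoters on either strand. ACAATG or ACAAAG, cores of SOX factors, were in 2 of the 6 and in 28.6% of all. No match says only that these letters are not in this window.

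In WT liver the 10 genes differed widely in level. Clec4g, the sinusoidal lectin also called LSECtin, was highest, with 70.7 ± 26.3 TPM on alcohol diet and 43.1 ± 18.1 TPM on control diet (SD, n = 4 each, as in all WT values below). Fcgr2b, the inhibitory Fc receptor that takes up immune complexes and is also found on B cells and macrophages, came next with 42.1 ± 13.8 TPM on alcohol diet and 23.9 ± 13.1 TPM on control diet. The step between these genes, and that from Fcgr2b to the next, was larger than the larger SD of the genes compared, and held in 4 of 4 libraries of either diet. Below Fcgr2b no neighbours in the order of levels differed by more than their SD on either diet. The lowest was Kdr, at 5.18 ± 2.16 TPM on alcohol diet and 3.39 ± 2.21 TPM on control diet. Lyve1 was the one gene that changed its place in the order by more than 2 ranks, at place 4 on alcohol diet and place 9 on control diet.

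Lyve1 and Pecam1 rose on alcohol diet, 2 of the 10 genes, beside 13.3% of all 9744 genes tested that rose and 17.9% that fell. The log2 fold change was positive for 10 of 10, beside 45.2% of all genes tested. Lyve1, the hyaluronan receptor of lymphatic and sinusoidal endothelium, was at 10.4, 13.7, 13.7 and 14.8 TPM in the alcohol libraries and at 2.38, 2.92, 2.90 and 6.89 TPM in the control libraries. No control library reached the lowest alcohol library, which held for Lyve1 alone among the 10 and upward for 12.3% of all genes tested, and the ratio of means was 3.48. The log2 fold change on the log2(TPM + 1) scale was 1.64 (SE 0.243, limma adjusted p = 9.8e-04), and this scale understates changes of low genes. The gene is on chromosome 7, minus strand, from 110850607 to 110863239. Pecam1, the CD31 adhesion molecule of endothelial junctions that platelets and leukocytes also carry, was at 10.9, 21.2, 20.1 and 17.2 TPM in the alcohol libraries and at 5.38, 6.52, 6.54 and 14.5 TPM in the control libraries. Its groups overlapped, because the lowest alcohol library lay below the highest control library, and the log2 fold change was 1.05 (SE 0.283, limma adjusted p = 0.0191). The gene is on chromosome 11, minus strand, from 106654217 to 106750628. The call of Pecam1 was lost without WT control replicate 1 (adjusted p = 0.0535) and without WT control replicate 3 (adjusted p = 0.0539), with no filter on low values (0.0550) and in a joint fit of all 14 libraries (0.531), while Lyve1 passed in 8 of 8 fits that left out 1 library.

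**Figure D1:**
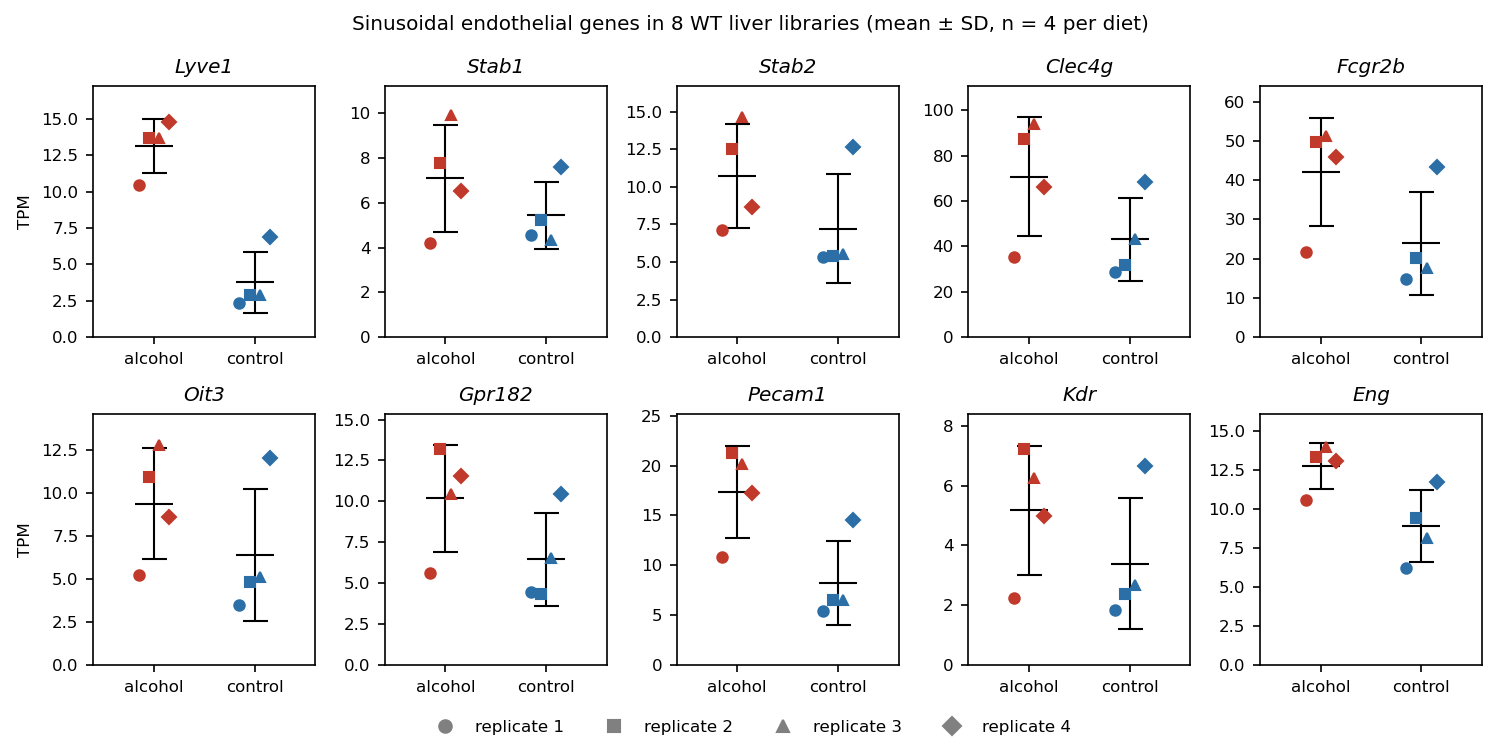
TPM of the 10 sinusoidal genes (vertical axis, from 0) in the 4 alcohol and 4 control libraries of WT liver. Symbols are replicates, and bars are the mean and SD. Lyve1 is the panel in which the diets do not overlap, and in every panel alcohol replicate 1 is the lowest alcohol point and control replicate 4 the highest control point.

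Among the scavenger and lectin genes, none besides Lyve1 passed. Clec4g was at 35.5, 87.2, 94.0 and 66.2 TPM on alcohol diet and at 28.6, 31.9, 43.2 and 68.6 TPM on control diet. Its diets overlapped, with a log2 fold change of 0.69 (SE 0.328, limma adjusted p = 0.132). Fcgr2b was at 21.6, 49.7, 51.2 and 45.8 TPM on alcohol diet and at 14.8, 20.1, 17.5 and 43.3 TPM on control diet. Here 3 of 4 alcohol libraries lay above the highest control library (log2 fold change 0.84, SE 0.343, adjusted p = 0.0864). Stab2, which binds hyaluronan and clears it from blood, was at 7.11, 12.5, 14.6 and 8.65 TPM on alcohol diet and at 5.31, 5.38, 5.52 and 12.6 TPM on control diet. Alcohol replicate 3 alone exceeded the highest control library (0.55, SE 0.281, adjusted p = 0.159). Stab1, the related scavenger that macrophages also carry, had the smallest difference of the 10, with 4.20, 7.78, 9.91 and 6.52 TPM on alcohol diet and 4.58, 5.25, 4.34 and 7.62 TPM on control diet. The lowest of all 8 values was in an alcohol library (log2 fold change 0.31, SE 0.229, adjusted p = 0.336).

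Oit3, a secreted protein gene used as a sinusoidal marker, was at 5.25 to 12.8 TPM on alcohol diet and at 3.51 to 12.1 TPM on control diet (log2 fold change 0.56, limma adjusted p = 0.221). Gpr182, an atypical chemokine receptor gene of sinusoidal and lymphatic endothelium, was at 5.60 to 13.2 TPM on alcohol diet and at 4.35 to 10.5 TPM on control diet (0.60, adjusted p = 0.131). The diets overlapped in both genes. The receptors with a signalling role, Kdr and Eng, did not pass either. Kdr, the main VEGF receptor, was at 2.25, 7.22, 6.27 and 4.99 TPM on alcohol diet and at 1.84, 2.39, 2.68 and 6.66 TPM on control diet, a log2 fold change of 0.52 (adjusted p = 0.268). The highest control library lay above 3 of the 4 alcohol libraries. Eng, the endoglin gene, was at 10.6, 13.3, 14.02 and 13.1 TPM on alcohol diet and at 6.25, 9.47, 8.16 and 11.8 TPM on control diet. Eng varied least of the 10, with coefficients of variation of 11.7% on alcohol diet and 26.1% on control diet, and its log2 fold change of 0.50 (SE 0.173, adjusted p = 0.0507) lay outside the threshold. It passed when the libraries were shifted to a common median (0.55, adjusted p = 0.0222) and after quantile normalization (0.55, adjusted p = 0.0214). It did not pass with TPM rescaled without the major urinary protein genes (0.37, adjusted p = 0.109) or in a joint fit of all 14 libraries (adjusted p = 0.839).

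The same libraries were high and low in all 10 genes. WT control replicate 4 was the highest control library for 10 of 10, against 31% of all genes tested, and WT alcohol replicate 1 was the lowest alcohol library for 10 of 10, against 37.3% of all genes tested. Both held together for 9.75% of all genes tested. Control replicate 4 was at 1.48 times (Eng) to 2.89 times (Kdr) the mean of the other control libraries, and alcohol replicate 1 was at 0.365 times (Kdr) to 0.785 times (Eng) the mean of the other alcohol libraries. The 10 genes summed to 113, 237, 247 and 197 TPM in the alcohol libraries and to 77.1, 93.1, 103 and 194 TPM in the control libraries. How many genes passed depended on these libraries. Without control replicate 4 all but Stab1 passed, 9 of 10, beside 35.5% of all 9771 genes tested in that fit, with log2 fold changes of 0.83 for Stab2, 0.94 for Clec4g, 1.16 for Fcgr2b, 0.87 for Oit3, 0.84 for Gpr182, 0.83 for Kdr and 0.63 for Eng. Without alcohol replicate 1 the count was 5 of 10, beside 21% of all 9767 genes tested in that fit, with Clec4g (0.99), Fcgr2b (1.12) and Gpr182 (0.84) added to Lyve1 and Pecam1. The counts without them are given as values, since these libraries stand apart by the very genes counted. Control replicate 4 also had the smallest share of major urinary protein RNA among the controls (7.26%, against 10.3% to 10.9%). Alcohol replicate 1 was the lowest alcohol library for 13 of 13 Kupffer cell markers too, which summed to 222 TPM in it and to 365 to 478 TPM in the other alcohol libraries. The part of these differences in the endothelial values was not tested.

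The genes with the most similar profiles were named by the root mean square distance, over the 8 WT libraries, between a gene's centred log2(TPM + 1) values and the mean centred profile of the 10. The nearest genes outside the 10 were Flt4 (0.09), the VEGF receptor of lymphatic and sinusoidal endothelium, Mylip (0.10), a ubiquitin ligase of lipoprotein receptors, and Pde2a (0.12), a cyclic nucleotide phosphodiesterase. They were followed by the junctional adhesion gene Jam2 (0.13), the endothelial matrix gene Mmrn2 (0.14), the secreted nuclease gene Dnase1l3 (0.15), the endothelial adhesion gene Cd300lg (0.15) and the ETS-family factor gene Erg (0.16). Of these 8, Jam2 and Mmrn2 passed the diet test, beside 31.2% of all genes tested. The 8 were picked from the same libraries by a profile that holds the diet difference, so these calls are values only. Of the 10 themselves Oit3 was closest to their mean (0.14) and Lyve1 farthest (0.49), followed by Stab1 (0.27) and Eng (0.26), with each gene contributing to the mean it was measured against.

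**Figure D2:**
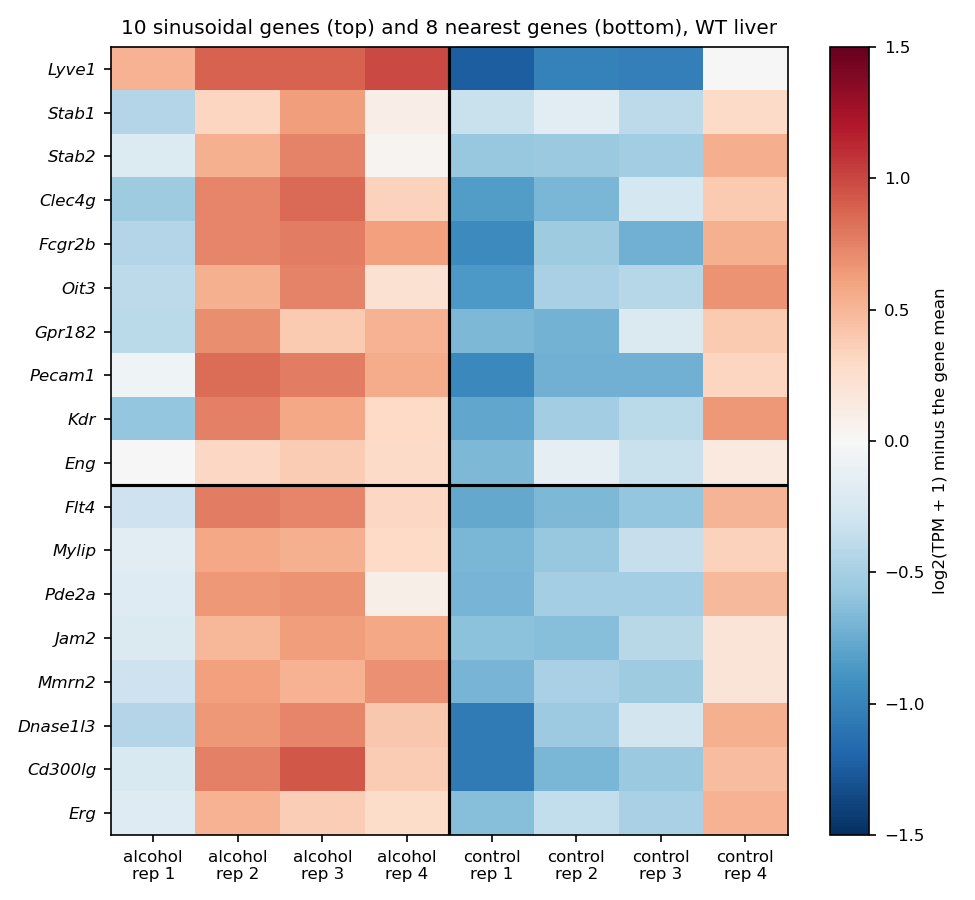
Centred log2(TPM + 1) of the 10 sinusoidal genes (upper block) and of the 8 genes nearest to their mean profile (lower block) in the 8 WT libraries, with red above and blue below the gene's mean. The mean centred value of the 10 was -0.25 in alcohol replicate 1 and 0.39 in control replicate 4, while the Lyve1 row is above its mean in all 4 alcohol libraries.

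Other endothelial genes were read from lists drawn up with earlier results of these data known. Of 14 pan-endothelial genes tested, shared by endothelium of most organs, 9 rose and none fell, beside 13.3% of all genes tested that rose, with a median log2 fold change of 0.68, beside 0.58 for the 10 sinusoidal genes and -0.05 for all genes tested. Among them Ecscr, an endothelial chemotaxis regulator, averaged 6.19 ± 1.29 TPM on alcohol diet and 1.44 ± 0.401 TPM on control diet (limma adjusted p = 1.2e-04). The nitric oxide synthase gene Nos3 averaged 1.79 ± 0.323 TPM on alcohol diet and 0.714 ± 0.227 TPM on control diet (adjusted p = 0.0032). Nos3 reached a mean of 1 TPM on alcohol diet alone and was tested through that group. Cd93, a glycoprotein of endothelial adhesion, averaged 4.20 ± 0.559 TPM on alcohol diet and 1.43 ± 0.933 TPM on control diet (adjusted p = 0.0034). The 18 listed genes summed to 74.5 to 114 TPM on alcohol diet and to 39.4 to 70.4 TPM on control diet, without overlap. Control replicate 4 was the highest control library for 11 of the 14, and alcohol replicate 1 the lowest alcohol library for 11 of the 14, as for the 10 sinusoidal genes.

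A fit chosen after seeing the data asked which sinusoidal genes moved apart from the pan-endothelial genes. Each library was shifted by its mean log2(TPM + 1) over all 18 listed ones. Calcrl, Sox7, She and Myct1, under a mean of 1 TPM on both diets, were part of that mean. Since this scale understates changes of low genes, the shift may be too small for genes at higher levels, which was not tested. That mean was 2.21 on alcohol diet and 1.56 on control diet, a difference of 0.65, and it overlapped at 1.919 in alcohol replicate 1 and 1.921 in control replicate 4. Relative to it Lyve1 was higher by 0.99 on the log2 scale (SE 0.194, 95% interval 0.589 to 1.40, limma adjusted p = 3.1e-04), and it was the only one of the 10 that passed. In this fit 74.5% of all genes passed and 2.66% passed upward. Of the 14 tested pan-endothelial genes themselves, 4 passed upward, Ecscr (0.91) and Cd93 (0.51) among them, and 1 passed downward (S1pr1). Single pan-endothelial genes thus also lay apart from their own mean. Pecam1 was at 0.40 (interval -0.0333 to 0.825, adjusted p = 0.0866) and Stab1 at -0.34 (interval -0.743 to 0.0540, adjusted p = 0.106). The remaining 7 lay between -0.15 (Eng) and 0.19 (Fcgr2b), with intervals that reached from -0.607 to 0.683. Stab1, Stab2, Oit3, Gpr182, Kdr and Eng had negative values in this fit and positive ones in TPM as deposited.

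**Figure D3:**
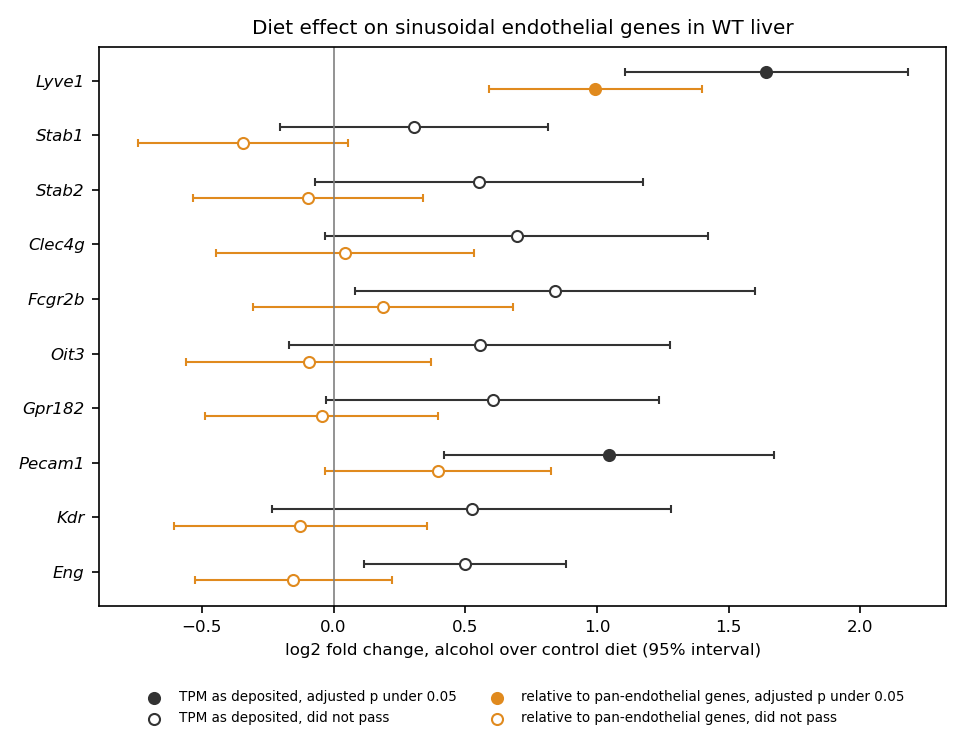
Log2 fold change, alcohol over control diet, of the 10 genes in WT liver with 95% intervals, from TPM as deposited (dark) and relative to the pan-endothelial genes (orange). Filled points passed at an adjusted p under 0.05. Lyve1 is filled in both, Pecam1 in the first, and the other 8 lie between -0.34 and 0.19 in the second.

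Of 8 tested genes of the VEGF and TIE receptor pathway 2 rose and none fell, beside 13.3% of all genes tested that rose. These were the VEGF co-receptor genes Nrp1, at 13.9 ± 3.71 TPM on alcohol diet and 3.40 ± 1.61 TPM on control diet (log2 fold change 1.79, limma adjusted p = 8.5e-04), and Nrp2, at 10.6 ± 2.56 TPM on alcohol diet and 2.18 ± 0.982 TPM on control diet (1.89, adjusted p = 3.8e-04). Flt1, the VEGF decoy receptor, was at 0.49 (adjusted p = 0.121) and the angiopoietin receptor Tek at 0.37 (adjusted p = 0.295). Of 10 tested genes of the BMP9 and endoglin pathway 5 rose, beside the same 13.3%, and none fell. They were Smad1 (0.90), the early targets Id1 (2.06), Id2 (1.40) and Id3 (1.61), and the receptor Acvrl1 (0.43). Acvrl1 reached a mean of 1 TPM on alcohol diet alone. Id1 averaged 16.3 ± 7.73 TPM on alcohol diet and 2.97 ± 1.02 TPM on control diet, and the diets did not overlap. Nrp1, Nrp2, Id1, Id2 and Id3 also passed relative to the pan-endothelial genes, at 0.75 (Id2) to 1.41 (Id1). In that fit 3 genes of the BMP9 and endoglin list passed downward, Smad5 (-0.47), Tgfbr1 (-0.48) and Tgfbr2 (-0.98). Of all genes 74.5% passed there and only 2.66% upward, so most genes passed downward and these 3 do not stand out. The Id genes are expressed in hepatocytes and other cells as well.

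Among further scavenger genes 6 of 10 tested rose, beside 13.3% of all genes tested that rose. They were Cd36 (1.93), a fatty acid translocase shared with hepatocytes, the lysosomal proteases Ctsl (0.71) and Lgmn (0.82), the lectins Colec11 (0.61) and Clec1b (0.54), and the adaptor Dab2 (0.48). Relative to the pan-endothelial genes 1 of the 10 passed upward, Cd36 (1.28), beside 2.66% of all genes, and 1 downward, Fcgrt. The list median in that fit was -0.14. The mannose receptor Mrc1, a defining sinusoidal scavenger that macrophages share, was at 5.16 ± 1.44 TPM on alcohol diet and 3.97 ± 1.91 TPM on control diet (limma adjusted p = 0.332). Of the sinusoidal transcription factors 1 of 5 tested rose, beside 13.3% of all genes tested. This was Ets1 (0.64), which reached a mean of 1 TPM on alcohol diet alone, while 10 of the 15 listed, Gata4 and Maf among them, were under a mean of 1 TPM on both diets and not tested. Of the angiocrine ligands 2 of 5 tested rose, beside the same 13.3%. These were Igfbp7 (0.71) and Sema6a (0.43), and Wnt2 was at 1.28 ± 0.508 TPM on alcohol diet and 1.06 ± 0.531 TPM on control diet.

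Several genes that passed reached a mean of 1 TPM on alcohol diet alone and were tested through that group, Nos3, Acvrl1, Sema6a, Cd34 and Lama4 among them. Of 12 tested capillarisation genes 6 rose and none fell, beside 13.3% of all genes tested that rose, among them Cd34 (2.12 ± 0.204 TPM on alcohol diet, 0.512 ± 0.230 TPM on control diet), Ly6a (1.18) and the fatty acid binding protein gene Fabp4 (1.37). The basement membrane genes Col4a1 (0.93) and Lama4 (0.52) and the diaphragm gene Plvap (0.47) were the others, and the caveolin gene Cav1 was at -0.39 (limma adjusted p = 0.0525). Relative to the pan-endothelial genes 2 of the 12 passed upward, Ly6a (0.53) and Fabp4 (0.72), and 2 downward, Vwf and Cav1. Of all genes 74.5% passed in that fit and 2.66% passed upward, so downward calls there are the rule. The list median in that fit was -0.14, and Cd34 did not pass (0.40, limma adjusted p = 0.0922). Alcohol replicate 1 was the lowest alcohol library for 3 of the 12 capillarisation genes and for 2 of 9 activation genes. Of 9 tested activation genes 7 rose, beside the same 13.3% of all genes tested. The adhesion molecule Icam1 was at 20.0 ± 5.22 TPM on alcohol diet and 7.65 ± 1.63 TPM on control diet. The thrombomodulin gene Thbd was at 7.51 ± 2.02 TPM on alcohol diet and 2.01 ± 1.23 TPM on control diet. Vcam1 (0.91), Cxcl9 (0.73), Lrg1 (1.07) and Nostrin (0.55) were among the others, and hepatocytes also express Lrg1.

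Markers of other cell types were read beside these. None of 13 Kupffer cell markers passed in either direction by limma. An unadjusted p under 0.05 was reached by 2 of the 13, C1qb (0.42, adjusted p = 0.0892) and C1qc (0.40, adjusted p = 0.101), beside 43% of all genes tested. The 13 markers summed to 222 to 478 TPM on alcohol diet and to 286 to 308 TPM on control diet. Of the B cell and monocyte markers 2 of 6 tested rose, Cd14 (2.66) and Itgam (0.35), beside 13.3% of all genes tested that rose. Itgam reached a mean of 1 TPM on alcohol diet alone and was tested through that group. The sums of these markers were 123 to 169 TPM on alcohol diet and 66.4 to 80.4 TPM on control diet. Of 10 tested stellate cell markers 4 rose and 1 fell, beside 13.3% of all genes tested that rose and 17.9% that fell. Ecm1 (0.81) and Dcn (0.71) were among those that rose, as was Des, which reached a mean of 1 TPM on alcohol diet alone. Cxcl12 fell (-0.58). Hepatocyte markers had 4 of 12 higher, beside the same 13.3%, with a median of 0.09, and included Fga (1.16), Tat (0.82) and Ahsg (0.39). None of 3 tested lymphatic markers passed by limma, and 2 had an unadjusted p under 0.05, again beside 43% of all genes tested (Flt4, 0.75, adjusted p = 0.0905, and Reln, 0.59, adjusted p = 0.0857). The lymphatic genes Pdpn, Ccl21a and Mmrn1 were under a mean of 1 TPM on both diets. The 3 tested markers are not particular to lymphatic endothelium. Flt4 is also sinusoidal, Reln was also on the stellate list, and Prox1 on that of sinusoidal transcription factors. Their count therefore says little about lymphatic endothelium, whose part in the Lyve1 difference was not tested. None of 3 tested cholangiocyte markers passed, and 2 had an unadjusted p under 0.05, beside the same 43%, Spp1 at 1.25 (adjusted p = 0.0544) and Muc1 at 0.47 (adjusted p = 0.0899).

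**Figure D4:**
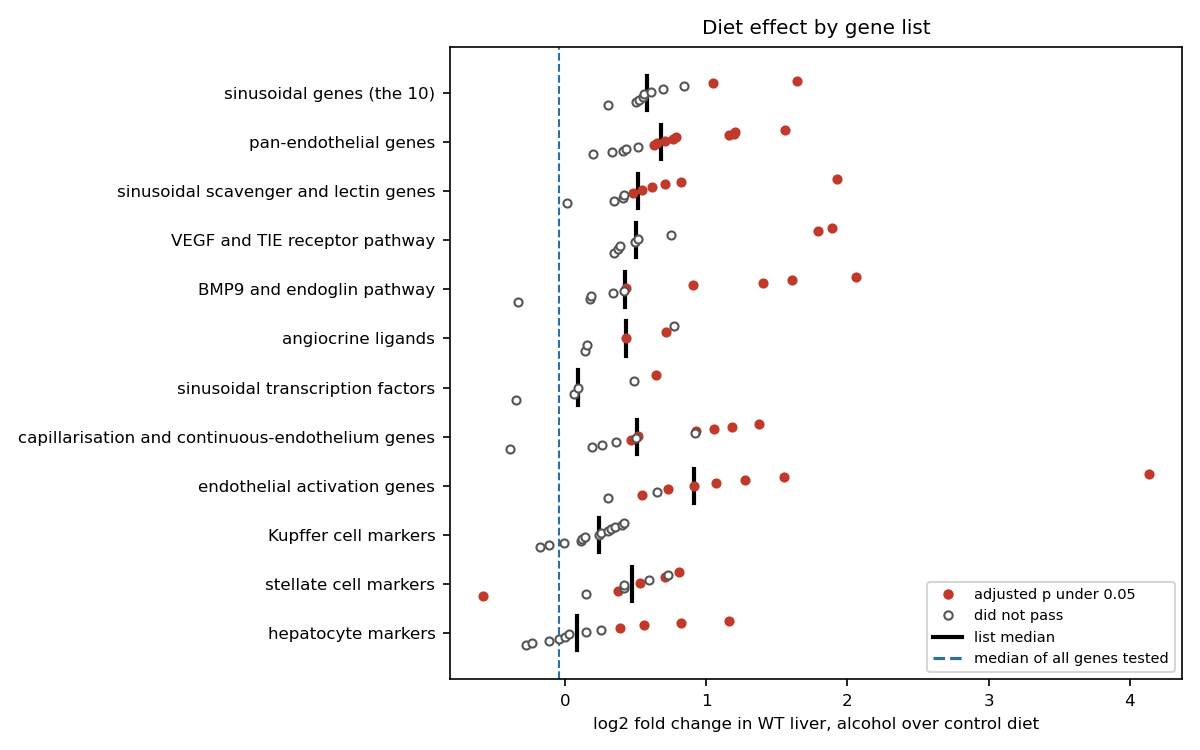
Log2 fold change in WT liver, alcohol over control diet, of each tested gene by list. Red points passed at an adjusted p under 0.05, black bars are list medians and the dashed line is the median of all genes tested (-0.05). The medians of the pan-endothelial list (0.68) and of the 10 sinusoidal genes (0.58) lie right of the dashed line, and no Kupffer cell marker is red.

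In the libraries labelled RageΔMye 8, 4 and 6 of the 10 genes were listed at 0 on alcohol diet and 2, 5 and 7 on control diet. A 0 there is not read as absence because housekeeping genes were also listed at 0. Lyve1 was listed at 0 in all 6 libraries. Clec4g was listed at 0 in 3 of 3 alcohol libraries and in 2 of 3 control libraries, the other being at 36.2 TPM. Pecam1 was listed at 0 in 3 of 3 alcohol libraries and at 7.05, 0 and 5.60 TPM in the control libraries. Stab1 was at 0, 5.06 and 3.15 TPM on alcohol diet and at 1.91, 0 and 0 TPM on control diet. Stab2, Fcgr2b, Oit3 and Kdr had 1 library above 0 of 3 on alcohol diet (2.10, 10.9, 8.21 and 1.68 TPM) and 1 or 2 of 3 on control diet, up to 23.7 TPM for Oit3. In these 8 genes no ordering of the diets can be read.

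Gpr182 and Eng were the exceptions, above 0 in 6 of 6 libraries and there above the range of the WT libraries, a difference that was not tested. Gpr182 was at 32.3, 47.1 and 44.4 TPM on alcohol diet and at 32.3, 48.8 and 43.0 TPM on control diet, a log2 fold change of -0.0027 (SE 0.390, 95% interval -0.907 to 0.901, limma adjusted p = 1.00). Eng was at 20.8, 52.8 and 87.9 TPM on alcohol diet and at 66.2, 68.3 and 30.1 TPM on control diet (-0.16, SE 0.605, 95% interval -1.56 to 1.24, adjusted p = 0.966). The diets overlapped in both genes, and neither difference was larger than the spread between libraries. In GENCODE M21 an exon of Gpr182 overlaps Zbtb39 on the opposite strand over 1.87% of its exon bases, and Eng overlaps Fpgs on the opposite strand over 1.51%. Zbtb39 was at 2.89 to 21.0 TPM and Fpgs at 19.0 to 38.1 TPM in the libraries labelled RageΔMye. Lyve1, Oit3, Pecam1 and Kdr have no such overlap, and Stab1, Stab2, Clec4g and Fcgr2b overlap an opposite-strand gene over 1.09% to 5.93% of their exon bases. The part of these overlaps in the values was not tested.

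Of the 9 genes tested in the libraries labelled RageΔMye, 0 passed by limma, 0 at an unadjusted p under 0.05, beside 0.0374% of all 10686 genes tested by adjusted p and 6.99% by unadjusted p. Some of the 9 entered the test through 1 group alone, and Lyve1 was not tested. Of the 18 pan-endothelial genes 11 to 15 were listed at 0 in the alcohol libraries and 9 to 14 in the control libraries. The RageΔMye diet groups also differed without overlap in the Y-linked sum, at 0.276 to 1.74 TPM on alcohol diet and 3.16 to 4.50 TPM on control diet. The major urinary protein share was 0.0460% to 1.13% on alcohol diet and 2.14% to 3.30% on control diet. The part of these differences in the values of the 10 genes was not tested, nor was whether the diet effect differs between the genotypes.

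**Figure D5:**
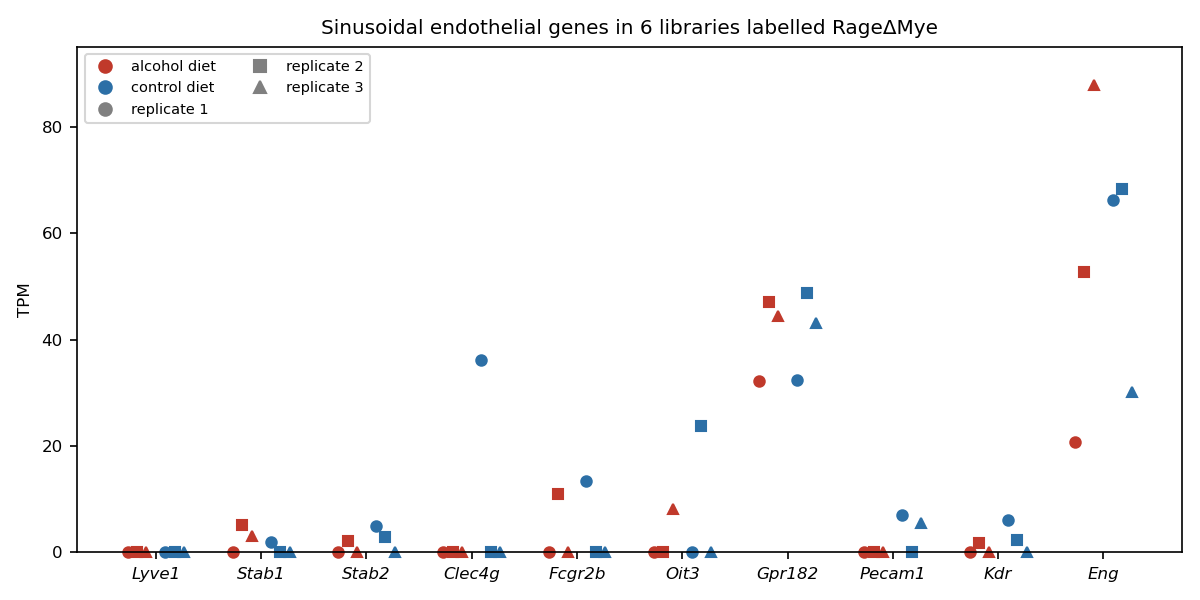
TPM of the 10 genes in the 3 alcohol and 3 control libraries labelled RageΔMye, with symbols for replicates. Only Gpr182 and Eng lie above 0 in all 6 libraries, and Lyve1 lies at 0 in all 6.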

How the data were processed

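Libraries of whole-liver RNA were prepared, per the labels, by the TruSeq Stranded mRNA method. Reads were mapped to mm10 according to the submitters' processing notes, and which aligner, counter, strand setting and gene models were used is not given in the sources used here. The header of the liver table deposited by the authors names no unit. Its values were taken as TPM computed by the authors, since they are not whole and each column sums to 999687 to 999862. The RAW264.7 macrophage table was not used. Repeated symbols turned into dates by a spreadsheet (4 rows) were left out.

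The test was limma 3.58.1 (R 4.3.3) with a trend on log2(TPM + 1), run separately on the 8 WT and the 6 RageΔMye libraries over genes whose mean reached 1 TPM on either diet. Benjamini-Hochberg adjustment covered every gene tested, at a threshold of 0.05, and the script was tested on simulated data. WT replicate numbers follow accession order. The 10 genes and the 16 other lists, which include sex-linked and major urinary protein genes, were chosen with earlier results of these data known. Named are the 10 genes, up to 3 passing genes per list by adjusted p (otherwise the 2 with the smallest p, as values), the 8 nearest profiles and the sex-linked genes. Other genes were named after their values were seen, to complete a count or to show a defining gene. Alternatives were another pseudocount, filters, scalings, a joint fit, leaving out each library and a replicate block. Exon overlaps are from GENCODE M21. The values of 1 listed gene are not reported here.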

Additional observations from a re-analysis of the deposited data

Results flagged for a closer look

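Each gene or sum was checked in the 4 alcohol and in the 4 control libraries of WT, 122 groups over both diets. In 9 of the control groups, control replicate 4 lay far above the other control libraries. Among the 10 sinusoidal genes these were Lyve1 (6.89 TPM), Stab2 (12.6 TPM) and Pecam1 (14.5 TPM). The others were Cd36 (13.5 TPM), Ets1 (1.36 TPM), Cd93 (2.82 TPM), Flt4 (7.44 TPM), Pde2a (9.59 TPM) and Erg (3.40 TPM). Alcohol replicate 4 lay far above the other alcohol libraries for Igfbp7 (8.79 TPM) and far below them for Itgam (0.781 TPM). Control replicate 1 lay far below the other control libraries for Dcn (33.7 TPM). Among sex-linked transcripts, Xist stood out in control replicate 2 (0.135 TPM), and Eif2s3y and with it the Y-linked sum stood out in alcohol replicate 4 (0.0161 TPM each). Over both diets 15 of the 122 groups had such a library, and chance gives about 5% of groups one. That share does not apply to Flt4, Pde2a and Erg, which were chosen for a profile in which control replicate 4 is high, and the genes share their libraries.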

How the results depend on the processing

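Lyve1 passed in WT in 8 of 8 fits that left out 1 library, at log2 fold changes of 1.51 to 1.91. Leaving out 1 library gave 1 to 9 of the 10 genes passing and 2053 to 3467 genes in all. The number of the 10 genes that passed was 1 with no filter on low values, 1 in a joint fit of all 14 liver libraries and 1 relative to the pan-endothelial genes. Pecam1 was lost in these, with adjusted p of 0.0550, 0.531 and 0.0866. All genes passing in WT numbered 1879 with a filter at 5 TPM, 469 in the joint fit and 7258 relative to the pan-endothelial genes. In the last of these Stab1 (-0.34), Stab2 (-0.10), Oit3 (-0.0949), Gpr182 (-0.0456), Kdr (-0.13) and Eng (-0.15) turned negative, because the pan-endothelial mean itself was higher by 0.65. Rescaling TPM without the major urinary protein genes gave a median log2 fold change of all genes of -0.17, against -0.05. In RageΔMye 4 genes passed, and the count was 9 with a filter at 5 TPM, 7 with a common median, 7 after quantile normalization and 664 in the joint fit. It was 0 to 5 with 1 library left out, where Gpr182 ranged from -0.17 to 0.16 and Eng from -0.62 to 0.40. RageΔMye replicate numbers did not pair the libraries (same-number correlations of 0.018, -0.0164 and -0.0001), and a replicate block gave 0 genes. No paired analysis was possible in WT because the diets share no replicate numbers in the labels. TPM keeps no depth, so no counting error can be given.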
